A study of Mus musculus with 9 samples.

Results

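Vimentin and the other non-keratin filaments were followed here through 8 genes: Vim, Des, Nes and Synm, which encode cytoplasmic filament proteins, Lmna, Lmnb1 and Lmnb2, which encode the nuclear lamins, and Plec, which encodes the linker protein plectin. They were chosen by name, with earlier results of these data known. All 8 were found by their Entrez IDs among 24594 genes of the count table. RNA was sequenced from BG2 cells, a line of mammary epithelial origin from a tumour of an MMTV-NIC mouse, in which the MMTV promoter drives the oncogene Neu and Cre recombinase in mammary epithelium. All 3 groups carry this transgene. Sox10 knockout clone 1 and Sox10 knockout clone 2 were each grown out of a CRISPR-edited population treated with guides against exon 3 of Sox10, which encodes a DNA-binding regulator of neural crest and mammary lineages. The wild-type cells were an uncloned bulk population, whose library names hold NTC. Each group had 3 libraries, which the labels call technical replicates, so a p-value here speaks of variation among libraries and not among cultures or further clones. Loss of Sox10 and growth from a single clone cannot be told apart in this design.

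Intermediate filaments are the rope-like part of the cytoskeleton, and cells are often described by which ones they make. Epithelial cells rely on keratins, mesenchymal cells on vimentin, muscle on desmin, and neural and muscle progenitors on nestin, while lamins form the mesh under the nuclear membrane of every cell. Vimentin is a widely used sign of a mesenchymal state in mammary tumour cells, and plectin ties the filaments to each other, to actin, to hemidesmosomes and to the nucleus.

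Sox10 itself had 0, 6 and 0 counts in the clone 1 libraries and 0, 2 and 2 counts in the clone 2 libraries, against 16660, 21437 and 26038 counts in the wild-type libraries. The libraries held 65805296 to 83282841 counts each. Of 13928 genes tested with edgeR's quasi-likelihood test, 76.5% differed from wild type in clone 1 and 74.4% in clone 2 at a Benjamini-Hochberg adjusted p under 0.05, so a call by itself sets no gene apart. In every group replicate 1 stood apart from replicates 2 and 3, and results that changed without the replicate 1 libraries are named. Of 6 mammary epithelial marker genes all were called lower in both clones, where 29.4% of all tested genes were. Their summed level was 1109 to 1260.3 CPM (read counts relative to library size, scaled by TMM) in clone 1 and 1362 to 1543 CPM in clone 2, against 5826 to 6924 CPM in wild type. Epcam, an epithelial adhesion gene, was at 0 counts in clone 2, and Cldn3, a tight junction gene, at 0 counts in clone 1. In the clones only Krt8, Krt18 and Cdh1 of the 6 averaged over 1 CPM.

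Vim and Nes were higher in both knockout clones, Des was higher in clone 2 and, on few counts, in clone 1, and Lmnb1 was lower in both. Estimated changes of Synm, Lmna, Lmnb2 and Plec were under 2-fold. Relative to wild type, Nes was 14.8 times higher in clone 1 and about 15 times higher in clone 2, and Vim 3.62 times higher in clone 1 and 3.04 times in clone 2. Lmnb1 was 2.12 times lower in clone 1 and 2.36 times lower in clone 2. In clone 1, 7 of the 8 genes were called higher, where 37.9% of all tested genes were, and 1 was called lower, where 38.6% were. In clone 2, 5 were called higher and 1 lower, where 37.3% and 37.1% of all tested genes were. Called higher in both clones were 5 genes (Vim, Des, Nes, Lmnb2 and Plec), and 4 to 6 across the alternatives run (4 without the replicate 1 libraries), against 28.7% of all tested genes, and called lower in both was 1 (Lmnb1), against 29.4%. All 8 passed the filter on low counts, Des through the clone 2 libraries, where it is high. The median log2 fold change of the 8 was 0.83 in clone 1 and 0.39 in clone 2, beside 0.002 and -0.003 over all tested genes. Both clones were set against the same wild-type libraries, so their values are not independent of each other.

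**Figure D1:**
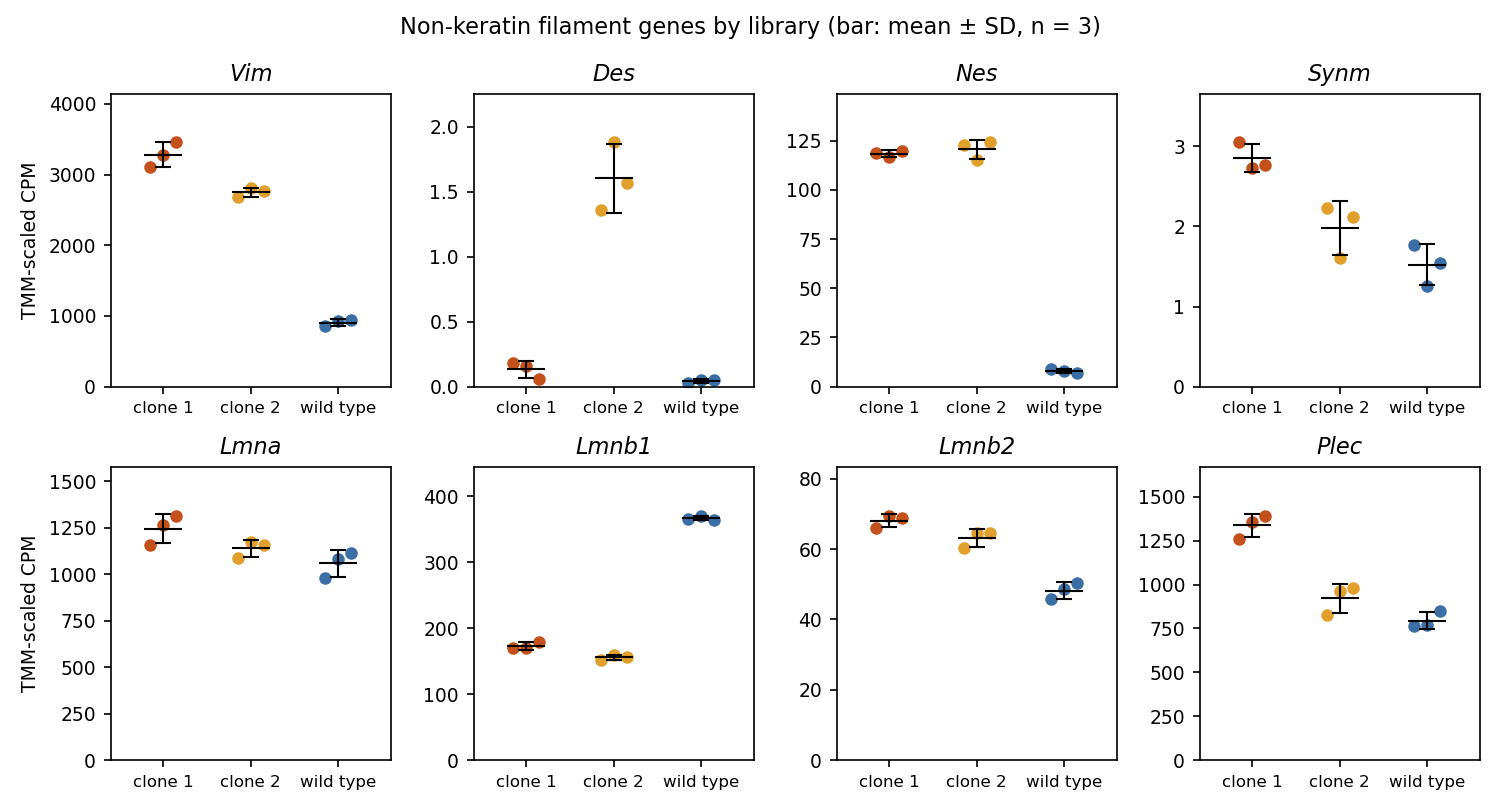
Levels of the 8 genes in each library, as TMM-scaled CPM on linear axes that start at 0; each dot is 1 library and the bars give the mean and SD of the 3 libraries of a group. Vim and Nes lie higher in all 6 clone libraries than in any wild-type library, Lmnb1 lies lower, and Des is high in clone 2.

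Vim (Entrez ID 22352; chromosome 2, 13573927 to 13582826, plus strand, GRCm38, GENCODE M21) encodes vimentin, the type III filament protein of mesenchymal cells. Its level was 3114, 3279 and 3456 CPM in the clone 1 libraries, 2679.8, 2809 and 2763 CPM in the clone 2 libraries, and 853, 924 and 941 CPM in the wild-type libraries. The 3 groups did not overlap, and wild type was the lowest, though Vim was abundant there too. Means were 3283 ± 171 CPM in clone 1, 2750.4 ± 65.4 CPM in clone 2 and 906 ± 46.5 CPM in wild type (SD, n = 3 each). The log2 fold change was 1.86 ± 0.06 (SE) in clone 1 and 1.60 ± 0.06 in clone 2, with edgeR adjusted p of 2.21e-10 and 7.59e-10. Of all tested genes, 9.38% had as large a log2 fold change in clone 1 and 10.5% in clone 2. Vim was lower in clone 2 than in clone 1, by a log2 difference of -0.26 ± 0.06 (edgeR adjusted p = 0.00387; 95% interval -0.389 to -0.122).

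Vim and Nes are the abundant members that rose most, so their promoters are shown, from RefSeq on GRCm38.p6, from 250 bases before the transcription start to 50 bases after it. The Vim window is chr2:13574061-13574360 on the plus strand. Capitals mark the CCAAT box (CCAAT, or ATTGG where it lies on the other strand) and the TATA box (TATAAA), 2 motifs added to the search after the sequences had been seen. The search covered both strands.
Vim promoter: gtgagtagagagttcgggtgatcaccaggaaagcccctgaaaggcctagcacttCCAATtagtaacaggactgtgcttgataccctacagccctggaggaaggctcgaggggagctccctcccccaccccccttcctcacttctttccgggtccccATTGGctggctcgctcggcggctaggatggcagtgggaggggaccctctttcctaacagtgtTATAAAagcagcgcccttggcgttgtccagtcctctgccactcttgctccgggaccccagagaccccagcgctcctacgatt
CCAAT was found at -196 and -94 and TATAAA at -32 from the start. Of 32851 windows of the same length in the RefSeq table, 37.4% held CCAAT and 13.6% held TATAAA on either strand. The AP-1 motif TGANTCA, the E-box CAGGTG of the Snail and Zeb repressors, and the Sox core ACAAT were not among the letters of the Vim window; 7.81%, 20.2% and 31.0% of all windows held them.

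Nes (Entrez ID 18008; chromosome 3, 87971078 to 87980451, plus strand) encodes nestin, a large filament protein of neural and muscle progenitors that co-assembles with vimentin. Its level was 119, 116 and 120 CPM in the clone 1 libraries, 123, 115 and 124 CPM in the clone 2 libraries, and 9.07, 7.96 and 7.04 CPM in the wild-type libraries. The clones overlapped each other, and every clone library was far above every wild-type library. Means were 118 ± 1.75 CPM in clone 1, 121 ± 4.94 CPM in clone 2 and 8.03 ± 1.02 CPM in wild type (SD, n = 3 each). On the log2 scale the change was 3.88 ± 0.08 (SE) in clone 1 and 3.91 ± 0.08 in clone 2, with edgeR adjusted p of 6.53e-12 and 6.08e-12. Of all tested genes, 4.34% had as large a log2 fold change in clone 1 and 4.36% in clone 2. Between the clones the log2 difference was 0.03 ± 0.07, with a 95% interval of -0.134 to 0.188 (edgeR adjusted p = 0.778), which bounds any difference but does not show equality.

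The Nes window is chr3:87970843-87971142 on the plus strand of GRCm38.p6, again 250 bases before to 50 bases after the start. Capitals mark the Sox core ACAAT, the one match to the motifs searched.
Nes promoter: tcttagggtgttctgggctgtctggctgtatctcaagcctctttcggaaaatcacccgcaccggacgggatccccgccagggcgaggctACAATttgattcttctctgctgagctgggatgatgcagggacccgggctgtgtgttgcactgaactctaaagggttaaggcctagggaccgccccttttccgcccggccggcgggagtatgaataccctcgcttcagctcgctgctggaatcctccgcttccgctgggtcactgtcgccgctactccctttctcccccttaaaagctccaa
ACAAT lies at -161, and 31.0% of all promoter windows hold these letters, so the match is a description of the window only. Of the 8 genes, 6 had a promoter entry (Vim, Des, Nes, Synm, Lmna and Lmnb2), with 2 windows each for Lmna and Lmnb2. Lmnb1 and Plec had none. In the remaining windows the AP-1 motif and ACAAT were found in 1 Lmna window at 40 and -131, CCAAT in the other at -131, CCAAT in the Synm window at -78, and CAGGTG in 1 Lmnb2 window at -31.

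Des (Entrez ID 13346; chromosome 1, 75360329 to 75368579, plus strand) encodes desmin, the type III filament of muscle. It had 12, 12 and 4 counts in the clone 1 libraries, 113, 142 and 123 counts in the clone 2 libraries, and 2, 4 and 4 counts in the wild-type libraries. Clone 2 stood clear of both other groups, while the lowest clone 1 library, at 0.0573 CPM, was barely above the highest wild-type library, at 0.0541 CPM. Over the 3 libraries the sums were 28 counts in clone 1, 378 in clone 2 and 10 in wild type. As a ratio of summed counts per total, Des was 2.94 times higher in clone 1 (95% counting interval 1.38 to 6.77) and 35.7 times higher in clone 2 (19.2 to 75.1). The intervals cover counting error only, because the reads carry no molecular identifiers and may be copies of 1 molecule. The fitted log2 fold change was 1.53 ± 0.54 (SE; edgeR adjusted p = 0.0234) in clone 1 and 5.12 ± 0.40 (edgeR adjusted p = 3.38e-07) in clone 2. The clone 1 call was lost without the replicate 1 libraries (1.05, edgeR adjusted p = 0.204) and without wild-type replicate 1 (1.32), clone 1 replicate 1 (1.26) or clone 1 replicate 2 (1.38). Clone 2 exceeded clone 1 by a log2 difference of 3.58 ± 0.34 (edgeR adjusted p = 4.83e-06). Even in clone 2, Des averaged only 1.60 ± 0.263 CPM. An antisense gene, Gm15179, shares 220 of its 3754 exon bases, and the sources used here do not give the strand setting of the counting, so reads of the 2 genes may not have been kept apart.

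Synm (Entrez ID 233335; chromosome 7, 67730160 to 67759742, minus strand) encodes synemin, which joins vimentin or desmin filaments and anchors them to attachment complexes. Its level was 3.05, 2.73 and 2.77 CPM in the clone 1 libraries, 2.23, 1.60 and 2.12 CPM in the clone 2 libraries, and 1.76, 1.26 and 1.54 CPM in the wild-type libraries. Clone 1 lay above both other groups, and clone 2 overlapped wild type. The log2 fold change was 0.90 ± 0.18 (SE; edgeR adjusted p = 0.000688) in clone 1, and 0.39 ± 0.18 (edgeR adjusted p = 0.0719) in clone 2, which did not pass the test. Clone 2 was lower than clone 1 by -0.52 ± 0.17 on the log2 scale (edgeR adjusted p = 0.0248), a call lost without clone 1 replicate 1 (-0.47) or clone 2 replicate 2 (-0.41). The clone 2 difference from wild type passed the test without wild-type replicate 1 (0.48) or without clone 2 replicate 2 (0.49). Synm shares 426 of its 7933 exon bases with Gm45102 and 84 with Ttc23, both on the opposite strand.

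The lamin genes did not move together. Lmnb1 (Entrez ID 16906; chromosome 18, 56707813 to 56753424, plus strand) encodes lamin B1, a B-type lamin that stays attached to the nuclear membrane. Its level was 169.7, 169.5 and 179.8 CPM in the clone 1 libraries, 151.7, 159.6 and 155.9 CPM in the clone 2 libraries, and 366, 370.4 and 364 CPM in the wild-type libraries. All 6 clone libraries lay below every wild-type library, and clone 2 lay below clone 1. Means were 173 ± 5.90 CPM in clone 1, 156 ± 3.97 CPM in clone 2 and 367 ± 3.27 CPM in wild type (SD, n = 3 each). The log2 fold change was -1.08 ± 0.04 (SE) in clone 1 and -1.24 ± 0.04 in clone 2, with edgeR adjusted p of 1.02e-09 and 3.55e-10. Of all tested genes, 15.6% had as low a log2 fold change in clone 1 and 13.1% in clone 2. The clone 2 minus clone 1 difference was -0.15 ± 0.04 (edgeR adjusted p = 0.0113), which was lost without clone 1 replicate 3 (-0.12, edgeR adjusted p = 0.0559).

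Lmnb2 (Entrez ID 16907; chromosome 10, 80901203 to 80918245, minus strand), which encodes the other B-type lamin, went the opposite way to Lmnb1. Its level was 65.9, 69.4 and 68.8 CPM in the clone 1 libraries, 60.3, 64.6 and 64.7 CPM in the clone 2 libraries, and 45.7, 48.6 and 50.4 CPM in the wild-type libraries. Neither clone overlapped wild type. On the log2 scale the change was 0.50 ± 0.06 (SE; edgeR adjusted p = 7.92e-06) in clone 1 and 0.39 ± 0.06 (edgeR adjusted p = 6.06e-05) in clone 2. The tested genes on its chromosome had a median log2 fold change of 0.41 in clone 1 (0.39 in clone 2), close to those of Lmnb2. The part of a shift of the whole chromosome in this change was not tested.

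Lmna (Entrez ID 16905; chromosome 3, 88480147 to 88509956, minus strand) encodes lamins A and C, the lamins that rise as many tissues stiffen and differentiate. Its level was 1158, 1265 and 1314 CPM in the clone 1 libraries, 1089, 1176 and 1155 CPM in the clone 2 libraries, and 978, 1079.5 and 1117 CPM in the wild-type libraries. Clone 1 lay just above wild type, and clone 2 overlapped both other groups. Its log2 fold change was 0.24 ± 0.07 (SE; edgeR adjusted p = 0.00738) in clone 1 and 0.11 ± 0.07 (edgeR adjusted p = 0.165; 95% interval -0.04 to 0.255) in clone 2. The median log2 fold change of genes on chromosome 3, which also holds Nes, was 0.51 in clone 1 and 0.41 in clone 2, above that of Lmna and far below that of Nes. Between clones Lmna passed the test without clone 1 replicate 1 (-0.18) and without the replicate 1 libraries (-0.15). With the replicate number added to the fit as a block, Lmna was called in clone 2 (0.11, edgeR adjusted p = 0.00992). It was then also called between clones (-0.13, edgeR adjusted p = 0.00456).

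The balance of the lamins can be read within each library, where no scaling between libraries enters. The ratio of Lmna counts to the sum of Lmnb1 and Lmnb2 counts was 4.91, 5.29 and 5.29 in clone 1, 5.14, 5.24 and 5.23 in clone 2, and 2.37, 2.58 and 2.70 in wild type. Every clone library was above every wild-type library. The mean ratio was 2.03 times higher in clone 1 and 2.04 times higher in clone 2 than in wild type. The exact 2-sided permutation test gave p = 0.1 for each clone, the smallest that 3 against 3 libraries can give. These are ratios of reads and not of molecules, since the transcripts differ in length.

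**Figure D2:**
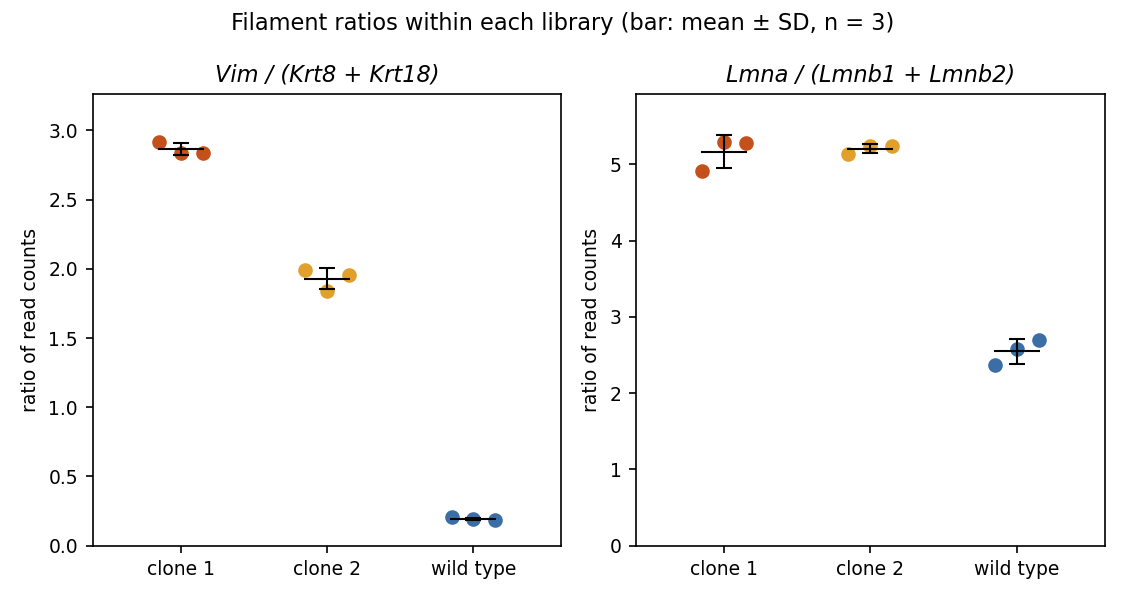
Ratio of Vim counts to the sum of Krt8 and Krt18 counts (left) and of Lmna counts to the sum of Lmnb1 and Lmnb2 counts (right) in each library, on linear axes from 0, with the mean and SD of 3 libraries per group. Clone 1 and clone 2 differ in the first ratio, 2.87 and 1.93 on average, and overlap in the second, and both lie above wild type in each.

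Plec (Entrez ID 18810; chromosome 15, 76170974 to 76232574, minus strand) encodes plectin, a giant plakin that links filaments to membranes and actin. Its level was 1261, 1357 and 1391 CPM in the clone 1 libraries, 825, 961 and 978 CPM in the clone 2 libraries, and 763, 772 and 848 CPM in the wild-type libraries. Clone 1 stood above both other groups, and clone 2 overlapped wild type. The log2 fold change was 0.75 ± 0.07 (SE; edgeR adjusted p = 2.61e-06) in clone 1 and 0.21 ± 0.07 (edgeR adjusted p = 0.0212) in clone 2. The clone 2 call was lost with RLE scaling (0.19, edgeR adjusted p = 0.0534) and without wild-type replicate 1 (0.16), wild-type replicate 2 (0.19), clone 2 replicate 2 (0.16) or clone 2 replicate 3 (0.17). Plec was lower in clone 2 than in clone 1 by -0.54 ± 0.07 on the log2 scale (edgeR adjusted p = 9.17e-05). The median over its chromosome was 0.29 in clone 1 (0.25 in clone 2) on that scale, so the clone 2 value of Plec lay near that median. Plec shares 205 of its 18113 exon bases with Parp10 on the same strand.

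**Figure D3:**
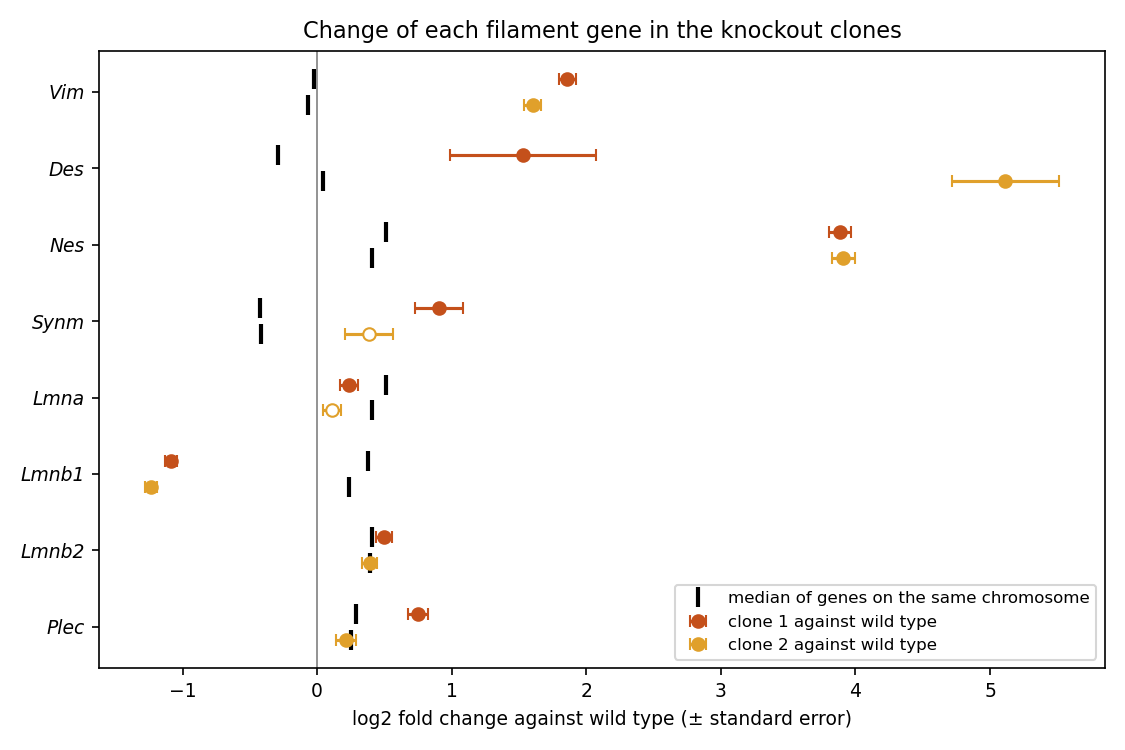
Log2 fold change of each gene against wild type with its SE, for clone 1 and clone 2; filled points passed the test, open points did not, and black ticks give the median of the tested genes on the same chromosome in that clone. Vim, Nes and Lmnb1 lie far from their chromosome's median in both clones, Lmnb2 lies close to it, and the Synm and Lmna points of clone 2 are open.

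Set side by side per kilobase of exon, the order of levels changed between the groups. In clone 1 it ran Vim (692 CPM per kb), Lmna (213), Plec (73.8), Lmnb1 (58.4), Nes (18.5), Lmnb2 (15.9), Synm (0.359) and Des (0.0352). In clone 2 it ran Vim (580 CPM per kb), Lmna (195), Lmnb1 (52.6), Plec (50.9), Nes (18.8), Lmnb2 (14.7), Des (0.427) and Synm (0.25), and the Lmnb1 and Plec libraries overlapped. In wild type it ran Vim (191 CPM per kb), Lmna (181), Lmnb1 (124), Plec (43.9), Lmnb2 (11.2), Nes (1.25), Synm (0.192) and Des (0.0118), and the Vim and Lmna libraries overlapped. Vim was slightly above Lmna within each wild-type library and well above it in both clones. Nes was above Lmnb2 in the clones and below it in wild type. The lengths are unions of annotated exons and may differ from the transcripts these cells make.

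Directly compared, the clones differed in 5 of the 8 genes, where 57.6% of all tested genes differed. Des was higher in clone 2, where 30.1% of tested genes were called higher, and Vim, Synm, Lmnb1 and Plec were lower in clone 2, where 27.5% were called lower. Of these only Des differed by more than 2-fold by edgeR's glmTreat test. Nes, Lmna and Lmnb2 did not pass the test between clones. The median log2 difference of the 8 genes was -0.14, beside 0 over all tested genes.

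The abundant keratin genes moved the other way from Vim. Krt8, one of the simple epithelial keratin pair of luminal cells, averaged 666 ± 39.6 CPM in clone 1 and 787 ± 54.0 CPM in clone 2, against 2393 ± 199 CPM in wild type (SD, n = 3 each). Krt18, its partner, averaged 480 ± 35.4 CPM in clone 1 and 641 ± 37.3 CPM in clone 2, against 2305 ± 266 CPM in wild type. Krt7, another simple epithelial keratin, fell in both clones, averaging 0.489 CPM in clone 1 and 5.68 CPM in clone 2, against 3786 CPM in wild type. Krt14, a basal cell keratin, rose in both clones, at 10.1 CPM in clone 1 and 135 CPM in clone 2, against 3.80 CPM in wild type. Of 6 tested keratins, 3 were lower in both clones (Krt7, Krt8 and Krt18) and 2 higher (Krt14 and Krt17), beside 29.4% and 28.7% of all tested genes. Krt17 had 23 counts in clone 1 and 37 counts in clone 2, against 6 counts in wild type. It entered the test through the clone libraries, where it is high. Krt17 was at or below 0.157 CPM on average in every group, and its clone 1 call was lost under 8 of the alternatives run, DESeq2 among them (edgeR adjusted p = 0.0453, DESeq2 adjusted p = 0.0546).

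The ratio of Vim counts to Krt8 plus Krt18 counts was 2.92, 2.84 and 2.84 in clone 1, 1.99, 1.84 and 1.96 in clone 2, and 0.204, 0.191 and 0.185 in wild type. The 3 groups did not overlap. The mean ratio was 14.8 times higher in clone 1 and 9.97 times higher in clone 2 than in wild type, and 0.673 times as high in clone 2 as in clone 1. The exact 2-sided permutation p was 0.1 in each of these comparisons, the smallest possible.

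Other cell types also make vimentin, desmin and nestin, and their markers were read beside these genes. In bulk RNA, fewer cells of a type and less RNA per cell cannot be told apart. Fibroblast markers summed to 240 to 248 CPM in clone 1 and 160 to 179 CPM in clone 2, against 31.0 to 36.8 CPM in wild type, and 5 of 6 tested fibroblast markers were higher in both clones, beside 28.7% of all tested genes. Pdgfra, a growth factor receptor of mesenchymal cells, made up most of this sum in the clones, at 172 ± 2.02 CPM in clone 1 and 107 ± 4.13 CPM in clone 2, against 7.83 ± 0.392 CPM in wild type. In wild type Pdgfrb, its relative, was the larger part, at 23.9 CPM. Of the 9 listed fibroblast markers, Lum and Thy1 were at 0 counts in every library, Dcn at 0 in clone 2 and Col3a1 at 0 in wild type. The part of such cells in the Vim and Nes levels was not tested.

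Skeletal muscle markers summed to at most 0.59 CPM in clone 1, 1.15 CPM in clone 2 and 0.976 CPM in wild type, and the muscle regulators Myod1 and Myog were at 0 counts in every library. Smooth muscle and myoepithelial markers summed to 2.61 to 3.12 CPM in clone 1 and 5.35 to 5.89 CPM in clone 2, against 1.58 to 1.98 CPM in wild type. These markers did not move together. Acta2, the smooth muscle actin gene, had 119 counts in clone 1 and 582 counts in clone 2, against 7 counts in wild type. Myh11, smooth muscle myosin, had too few counts to test, 9 in clone 1 and 12 in clone 2, against 33 in wild type. Neural and Schwann cell markers summed to at most 1.82 CPM in clone 1, 1.31 CPM in clone 2 and 1.18 CPM in wild type, and Sox2, a neural progenitor factor, was at 0 counts in every library. Immune markers summed to at most 0.318, 0.185 and 0.757 CPM in clone 1, clone 2 and wild type. Endothelial markers summed to 15.3 to 17.3 CPM in clone 1, nearly all of it Kdr, a VEGF receptor, against at most 0.953 CPM in clone 2 and 0.108 CPM in wild type. Adipocyte markers summed to 3.44 to 4.40 CPM in clone 1 and 7.93 to 9.90 CPM in clone 2, against 0.554 to 0.729 CPM in wild type. Nearly all of the adipocyte sum was Fabp4, a fatty acid binding protein gene, while Adipoq, the adiponectin gene, was at 0 counts in both clones.

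Most other non-keratin filament genes were silent or nearly so. Of 11 listed, 5 were abundant enough to test, and the neurofilament gene Nefl was at 0 counts in every library. Sync, which encodes the desmin partner syncoilin, rose in both clones, averaging 4.49 ± 0.401 CPM in clone 1 and 6.25 ± 0.804 CPM in clone 2, against 2.17 ± 0.389 CPM in wild type. Bfsp1, the lens filament gene filensin, rose in both clones, at 3.76 ± 0.153 CPM in clone 1 and 1.90 ± 0.109 CPM in clone 2, against 0.27 ± 0.135 CPM in wild type. Iffo2 was lower in both clones, at 38.5 CPM in clone 1, 32.2 CPM in clone 2 and 46.4 CPM in wild type. Gfap and Iffo1, both under 1 CPM, passed the test in neither clone.

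Genes that encode the other plakin linkers moved in both directions. Ppl, periplakin, rose in both clones, averaging 763 ± 20.3 CPM in clone 1 and 898 ± 36.0 CPM in clone 2, against 316 ± 7.19 CPM in wild type. Dsp, the desmoplakin that holds keratins at desmosomes, fell in both clones, at 41.9 ± 1.85 CPM in clone 1 and 0.563 ± 0.315 CPM in clone 2, against 208 ± 6.92 CPM in wild type. Evpl, envoplakin, fell in both clones, averaging 10.5 CPM in clone 1 and 6.85 CPM in clone 2, against 53.1 CPM in wild type. Of 6 plakin linkers, 1 was called higher and 2 lower in both clones, where 28.7% and 29.4% of all tested genes were.

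Of 4 listed partners of plectin at hemidesmosomes, 3 fell in both clones, while Plec rose in clone 1 and only slightly in clone 2. Itgb4, the laminin receptor subunit that binds plectin, fell in both clones, at 250.9 ± 14.3 CPM in clone 1 and 182 ± 18.2 CPM in clone 2, against 626 ± 40.9 CPM in wild type. Its partner subunit Itga6 fell in both clones, averaging 242 CPM in clone 1 and 154 CPM in clone 2, against 325 CPM in wild type, and the tetraspanin Cd151 fell in both clones, at 300.5 CPM in clone 1 and 277 CPM in clone 2, against 392 CPM in wild type. These 3 of 4 listed genes were called lower in both clones, as were 29.4% of all tested genes. Col17a1, a hemidesmosome collagen, had 161 counts in clone 1 and 30 counts in clone 2, against 16 counts in wild type, and it entered the test through clone 1, where it is high. Like Plec, it was called higher in clone 1 (log2 fold change 3.36, edgeR adjusted p = 0.000103), and it was not called in clone 2.

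Among 15 genes of the lamina and of LINC complexes, which couple the nucleus to the cytoskeleton, 3 rose in both clones (Lemd3, Tor1a and Tor1aip1), 6 fell in both (Emd, Lbr, Banf1, Syne1, Syne3 and Syne4) and 1 was called in opposite directions. The shares of all tested genes were 28.7% higher in both, 29.4% lower in both and 4.79% in opposite directions. Lbr, the lamin B receptor, fell in both clones, averaging 59.6 ± 3.17 CPM in clone 1 and 71.5 ± 4.64 CPM in clone 2, against 99.7 ± 10.4 CPM in wild type. Syne4, an epithelial nesprin that links the nucleus to kinesin, fell in both clones, at 0.191 CPM in clone 1 and 0.353 CPM in clone 2, against 22.2 ± 1.40 CPM in wild type. Syne1, a nesprin that binds actin, fell in both clones, averaging 18.8 CPM in clone 1 and 24.5 CPM in clone 2, against 50.3 CPM in wild type. Syne3, the nesprin that binds plectin, fell in both clones, at 16.8 CPM in clone 1 and 10.2 CPM in clone 2, against 23.5 CPM in wild type. Syne2, the other actin-binding nesprin, was at 43.7 ± 3.29 CPM in clone 1 and 14.01 ± 1.30 CPM in clone 2, against 34.4 ± 3.69 CPM in wild type. Its log2 fold change was 0.35 ± 0.09 (SE; edgeR adjusted p = 0.00552) in clone 1 and -1.30 ± 0.10 (edgeR adjusted p = 2.37e-07) in clone 2.

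Lamin B1 and prelamin A are farnesylated and then trimmed and methylated. Of 6 genes listed for prenylation and prelamin processing, 2 rose in both clones (Fnta and Narf) and 3 fell, beside 28.7% and 29.4% of all tested genes. The count of 2 was 1 in some fits without single libraries. Narf rose by 1.02 in clone 1 and by only 0.19 in clone 2 on the log2 scale (edgeR adjusted p = 0.0226 in clone 2). Fnta, the subunit shared by farnesyltransferase and its geranylgeranyl counterpart, rose in both clones, averaging 94.2 ± 3.55 CPM in clone 1 and 130 ± 6.72 CPM in clone 2, against 66.3 ± 3.27 CPM in wild type. Fntb, the subunit particular to farnesyltransferase, fell to 48.5 and 49.0 CPM in clones 1 and 2, against 76.6 CPM in wild type. The protease gene Rce1 fell to 45.2 and 39.5 CPM in clones 1 and 2, against 70.3 CPM in wild type, and the methyltransferase gene Icmt to 66.9 and 57.2 CPM, against 99.4 CPM in wild type. Zmpste24, the enzyme that cuts prelamin A, was called lower in clone 2 and not in clone 1.

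Of 6 genes for filament chaperones and turnover, 2 rose in both clones and 1 fell, where 28.7% and 29.4% of all tested genes did. Cryab, the small heat shock protein that binds desmin and vimentin, rose in both clones, at 249.9 ± 9.45 CPM in clone 1 and 1192 ± 55.5 CPM in clone 2, against 197 ± 22.5 CPM in wild type. Hspb1 rose in both clones, averaging 57.5 ± 2.85 CPM in clone 1 and 150.1 ± 9.22 CPM in clone 2, against 24.1 ± 3.998 CPM in wild type. Hspb8 fell in both clones, at 13.7 CPM in clone 1 and 21.8 CPM in clone 2, against 59.95 CPM in wild type.

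Of 7 genes that anchor desmin and synemin at muscle attachment sites, 4 were called higher in both clones (Utrn, Vcl, Flnc and Synpo2), or 3 under some alternatives, beside 28.7% of all tested genes. Called lower in both was 1 (Dmd), beside 29.4%. Dtna averaged 2.08 CPM in clone 1 and 14.4 CPM in clone 2, against 14.9 CPM in wild type, and was called lower in clone 1 only. Ldb3, at or below 0.182 CPM on average in every group, passed the test against wild type in neither clone. Synpo2 had 56 counts in clone 1 and 40 counts in clone 2, against 6 counts in wild type, and it entered the test through the clone libraries. Flnc, the filamin of muscle, rose in both clones, averaging 47.3 ± 4.06 CPM in clone 1 and 61.7 ± 7.86 CPM in clone 2, against 1.09 ± 0.0783 CPM in wild type. Vcl, vinculin, rose in both clones, at 247.5 CPM in clone 1 and 323 CPM in clone 2, against 127 CPM in wild type. Dmd, the dystrophin that binds synemin, had 0 counts in clone 1 and 3 counts in clone 2, against 1482 counts in wild type. Dmd was therefore at least 471-fold lower in clone 1, against a floor of 3 counts over the group, and 524-fold lower in clone 2 (95% counting interval 179 to 2540). Utrn, its widely expressed relative, was higher, by 0.41 in clone 1 (0.18 in clone 2) on the log2 scale. Its clone 2 call was narrow (edgeR adjusted p = 0.0421), and the clone 2 libraries overlapped wild type.

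**Figure D4:**
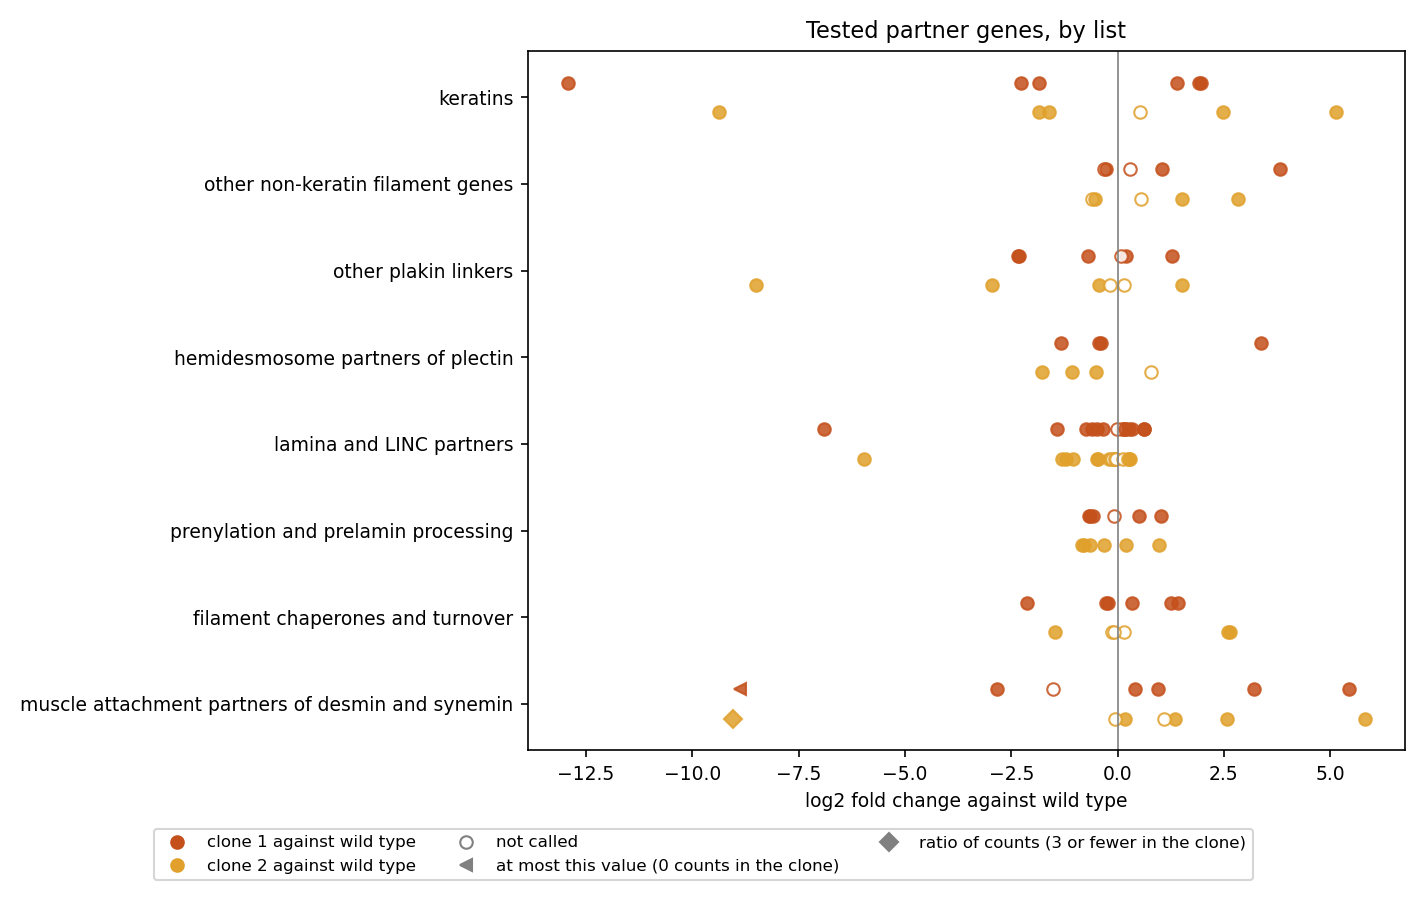
Log2 fold changes against wild type of the tested genes of 8 lists, 1 point per gene and clone; open points did not pass the test, the triangle is a bound from 0 counts in clone 1 and the diamond a ratio of counts, both for Dmd. Points lie on both sides of 0 in every list, and the hemidesmosome list has 3 of its 4 genes below 0 in both clones.

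Lamin B1 is known to fall as cells become senescent and stop dividing, so cycling genes were read beside it. Of 7 proliferation genes, Ccna2 was called higher in both clones, at 258 CPM in clone 1 and 258 CPM in clone 2, against 180.3 CPM in wild type, and 0 were called lower in both, where 28.7% and 29.4% of all tested genes were. Mki67 averaged 449.7 ± 103 CPM in clone 1 and 253 ± 48.5 CPM in clone 2, against 423 ± 90.2 CPM in wild type. It passed the test in clone 2 only. In clone 2, 4 of the 7 were called lower and 1 higher, where 37.1% and 37.3% of all tested genes were. In clone 1, 1 was called lower and 2 higher, where 38.6% and 37.9% of all tested genes were. The part of cell division in the Lmnb1 levels was not tested.

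For each gene, the genes with the most similar profile over the 9 libraries were sought among 10428 genes by the root mean square difference of centred log2 CPM values. These candidates had to reach a least mean CPM in some group, which Des and Synm did not reach in any. Genes as low as Des were therefore not searched. The differences were not scaled to the size of a gene's change or to its counting noise, so they do not rank the 8 genes by closeness of match. The smallest was that of Lmna, a gene that changed little, to Htt, the huntingtin gene, at 0.0204. Nearest to Vim were H2-T-ps, an H2 pseudogene whose reads may be shared with its relatives, at 0.0513, then the lysosomal gene Psap at 0.0616 and S100a16 at 0.0626. Psap was at 2193 CPM in clone 1 and 1749 CPM in clone 2, against 592 CPM in wild type. Nearest to Nes were the metalloprotease gene Adamts12 at 0.131 and Rcn1 at 0.139. Nearest to Lmnb1 was Arhgap19 at 0.0463, to Lmnb2 Ppp1r9b at 0.0316, to Synm Spag9 at 0.0919 and to Plec Pard3, a cell polarity gene, at 0.0615. Nearest to Des, which has few counts, was H2-DMb2 at 0.418, an antigen presentation gene at 1.11 CPM in clone 1 and 7.53 CPM in clone 2, against 0.368 CPM in wild type.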

How the data were processed

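RNA of BG2 cells was extracted with TRIzol and an RNeasy column, enriched for polyA RNA and made into stranded libraries, per the labels' protocols. The submitters' processing notes name fastp, Subread and DESeq2 and the builds mm10 and GRCm38; the sources used here give no versions, annotation or strand setting. The deposited values are raw gene-level read counts, 1 column per library, with no normalization by the authors per the file headers. All 9 libraries were used. Of 24594 genes, 24570 matched a symbol by Entrez ID; the 24 others held at most 0.202% of a library's counts.

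The 8 genes, the gene lists and the tests were chosen with earlier results of these data known. edgeR 4.0.16 in R 4.3.3 was run on all libraries with 1 factor of 3 groups: filterByExpr with a minimum count of 10 left 13928 genes, TMM scaling, quasi-likelihood test, Benjamini-Hochberg adjustment over all genes, and a difference called at adjusted p under 0.05. SEs are the log2 fold change over the square root of F. Differences beyond 2-fold were tested with glmTreat (log2 threshold 1). The fit was also run on simulated counts in which few genes were changed, in clone 1 only. Most genes differed in the real data, so that run does not show how the fit behaves there. CPM per kb used exon unions of GENCODE M21, and promoters came from RefSeq. Ratios were tested by exact permutation. Named were the 8 genes, up to 4 genes per list with the largest change called in both clones and up to 2 called in opposite directions. Also named were genes at 0 in a group that reached a least level in another, and the 3 nearest profiles, of which some are shown. Krt8, Zmpste24, Mki67, Col17a1, Gfap, Iffo1, Utrn, Dtna, Ldb3, Myh11 and Pdgfrb were named outside this rule, after their values were seen. So were Lemd3, Tor1a, Tor1aip1, Emd, Banf1 and Narf. Nefl, Lum, Thy1, Dcn, Col3a1, Sox2, Myod1, Myog and Adipoq, named for their 0 counts, also fell outside it. Alternatives were other scaling (RLE, library totals), filters, DESeq2 1.42.0, a replicate block, 2-group fits and leaving out libraries. Protein sequences were not used here.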

Additional observations from a re-analysis of the deposited data

Results flagged for a closer look

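The knockout clones carry the same edit target and were set against the same wild-type libraries, so a difference between them is one between the effects in the 2 clones, tested directly in edgeR. Of the 8 filament genes, 5 differed. Des was higher in clone 2 by a log2 difference of 3.58, with 378 counts in clone 2 and 28 counts in clone 1. Plec was lower in clone 2 by -0.54, Synm by -0.52, Vim by -0.26 and Lmnb1 by -0.15 on the log2 scale. Syne2, a nesprin that couples the nucleus to actin, was called higher than wild type in clone 1 and lower in clone 2, and clone 2 lay below clone 1 by -1.64 (edgeR adjusted p = 1.28e-07). Among all tested genes, 57.6% differed between the clones. Each clone is a single line sampled with technical replicates, so differences between clones and between cultures cannot be told apart.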

How the results depend on the processing

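Among the 8 genes and the list genes named by the rule, no called result turned its direction under the alternatives run. Genes named outside the rule were not followed singly through the alternatives. Vim, Nes, Lmnb1 and Lmnb2 kept their calls against wild type under every alternative run, with log2 fold changes of 1.81 to 1.90 for Vim, 3.79 to 3.98 for Nes and -1.11 to -1.07 for Lmnb1 in clone 1 when single libraries were left out. Leaving out 1 library gave 1.26 to 1.89 for Des in clone 1, 0.26 to 0.49 for Synm in clone 2, 0.16 to 0.29 for Plec in clone 2, and, for clone 2 minus clone 1, -0.61 to -0.41 for Synm, -0.178 to -0.088 for Lmna and -0.20 to -0.12 for Lmnb1; calls changed within each range. RLE scaling gave 0.19 for Plec in clone 2, no longer called. Without the replicate 1 libraries of all groups, an alternative chosen after seeing the data, Des in clone 1 was at 1.05 and not called, and Lmna was called lower in clone 2 than in clone 1 at -0.15. The replicate numbers paired the libraries in part. Same-numbered libraries correlated by 0.0143 to 0.249 in their deviations from the group mean, and not every library correlated best with its own number. Replicate 1 libraries correlated with each other by 0.214 to 0.249. With libraries of another number in the other groups they correlated by -0.212 to -0.0483. Deviations within a group cancel for each gene, so on balance these negative values follow from the positive ones and are no further sign of pairing. With a replicate block, Lmna in clone 2 (0.11), Lmna between clones (-0.13) and Lmnb2 between clones (-0.11) were called, 6 of the 8 genes were higher in both clones, and 11257 genes were called in clone 2 against 10367. Counts of genes called in both clones moved by over 1.5 times for 5 lists. Smaller moves gave 4 to 6 of the 8 genes higher, 3 to 4 lamina and LINC genes and 3 to 4 muscle attachment genes higher, 2 to 3 chaperone genes higher and 2 to 3 plakin linkers lower. Higher plakin linkers were 2 with a minimum count of 50, the block, 2-group fits or without the replicate 1 libraries (1 to 2 without single libraries). Lower chaperone genes were 2 with the block or without the replicate 1 libraries (1 to 2). Higher keratins were 1 with no filter, a minimum count of 50, DESeq2, the block, 2-group fits or without the replicate 1 libraries (1 to 2). Higher hemidesmosome genes were 0 to 1 and higher prenylation genes 1 to 2 without single libraries. The causes were not tested. Over all results followed and all alternatives, 60 values lost their call, 22 gained one and 26 counts moved by over 1.5 times. Counts of 3 over a group correspond to 0.0141 CPM in clone 1, 0.0127 CPM in clone 2 and 0.0134 CPM in wild type, which limits genes with few counts, such as Des and Dmd.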
